A study of Mus musculus with 6 samples.

Results

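Cxcl12, the chemokine gene also known as stromal cell-derived factor, and the genes of its receptors, Cxcr4 and Ackr3, were followed in mouse embryonic stem cells during the second day of FGF2 treatment. The 3 genes were taken by symbol from the 51912 gene rows of the count table. They were selected on their own counts at 24 h and 48 h, the ligand being higher and the receptors lower at 48 h, so the contrast between the times is described for them without a test. All groups were R1 mouse embryonic stem cells, an established line, kept first in 2iLIF, which holds them in the naive pluripotent state. They were then moved to N2B27, which contains no serum, supplemented with FGF2 at 100 ng/ml. Polyadenylated RNA was sequenced after 24 h (3 libraries) and after 48 h (3 libraries). Cells left in 2iLIF, or given N2B27 without FGF2, were not analysed here, so FGF2, the medium change and time in culture cannot be told apart.

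CXCL12 is a small secreted chemokine that is held on heparan sulphate chains at cell surfaces and in matrix. CXCR4 is its signalling receptor and acts through Gi proteins to direct cell migration, while ACKR3 (formerly CXCR7) is an atypical receptor that takes up CXCL12 and lowers its extracellular level. The axis is known for guiding primordial germ cells, blood stem cells, neurons and cells of the gastrulating embryo.

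In GENCODE M21, on the GRCm38 build named in the submitters' processing notes, Cxcl12 (ENSMUSG00000061353) lies at chr6:117168535-117181367 on the plus strand. Cxcr4 (ENSMUSG00000045382) lies at chr1:128588199-128592293 on the minus strand and Ackr3 (ENSMUSG00000044337) at chr1:90203980-90216751 on the plus strand. All 3 are protein-coding, none shares exon sequence with another annotated gene on either strand, and their counts were whole numbers in every library, so no reads were divided with similar genes.

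The 250 bases before each RefSeq start (GRCm38.p6), 5′ to 3′ in the direction of the gene, are shown as a description. Capitals mark the TATA box core TATAAA and the GC box core GGGCGG, searched on both strands, which were present in 12.4% and 32.7% of the 32851 mouse promoter windows of this length. The windows are chr6:117168285-117168534 for Cxcl12, chr1:128592300-128592549 for Cxcr4 and chr1:90203730-90203979 for Ackr3.
Cxcl12: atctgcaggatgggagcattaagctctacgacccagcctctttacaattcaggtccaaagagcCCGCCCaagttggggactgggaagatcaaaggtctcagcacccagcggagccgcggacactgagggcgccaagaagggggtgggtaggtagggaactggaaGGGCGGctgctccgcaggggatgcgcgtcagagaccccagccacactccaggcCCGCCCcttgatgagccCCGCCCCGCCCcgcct
Cxcr4: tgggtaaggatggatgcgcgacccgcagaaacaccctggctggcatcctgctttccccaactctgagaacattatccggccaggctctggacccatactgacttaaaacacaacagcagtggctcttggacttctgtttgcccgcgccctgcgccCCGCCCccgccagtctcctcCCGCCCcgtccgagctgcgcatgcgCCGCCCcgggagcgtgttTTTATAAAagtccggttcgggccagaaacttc
Ackr3: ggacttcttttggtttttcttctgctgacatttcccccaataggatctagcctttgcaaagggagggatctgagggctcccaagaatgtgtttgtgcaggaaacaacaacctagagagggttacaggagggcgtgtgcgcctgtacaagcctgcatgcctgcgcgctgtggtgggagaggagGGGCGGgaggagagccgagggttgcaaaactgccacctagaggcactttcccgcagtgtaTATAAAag
The Cxcl12 window held 5 matches to the GC box core and 0 to the TATA box core. The Cxcr4 window held 3 GC box cores, and a TATAAA on the strand of the gene whose first base lies 30 bases before the start, overlapped by a match on the other strand. In the Ackr3 window there was 1 GC box core and 1 TATAAA, which begins 8 bases before the RefSeq start. G and C made up 64.4% of the Cxcl12, 61.2% of the Cxcr4 and 54% of the Ackr3 window, against a median of 52.4%. These matches describe the letters of the windows only.

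The libraries held between 19574969 and 23133148 estimated counts. Levels are given as CPM, counts scaled to a common library size with TMM factors. A count of 0 allows up to 3 counts, between 0.127 and 0.150 CPM, and such limits cover counting error only. Of all 14889 tested genes, 62.8% changed between the times in edgeR's test (adjusted p under 0.05), 31.9% downward and 30.9% upward. All 8 embryonic stem cell markers on the list used were present and all changed, 6 downward and 2 upward. Their summed level lay between 5127 and 5181 CPM at 24 h and between 3647 and 3726 CPM at 48 h. Nanog, Esrrb, Zfp42 and Dppa5a, markers of naive cells, fell by 1.99, 1.47, 1.06 and 0.70 on the log2 scale, and Sox2 by 0.37. The Dppa5a counts were fractional, so reads were divided with similar genes. Lin28a and Utf1 rose by 1.55 and 0.60, and the core factor Pou5f1 fell least, with 1111 ± 1.99 CPM at 24 h and 1058 ± 15.2 CPM at 48 h (SD, n = 3). The part of this shift in the results for Cxcl12 and its receptors was not tested. Whether replicates came from separate cultures is not in the labels, so the spread between them may be technical.

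The ligand went from a trace to a well-expressed gene. Cxcl12 had 23, 9 and 14 counts in the 24 h libraries, or 1.15, 0.439 and 0.593 CPM. The 48 h libraries held 897, 856 and 846 counts, or 41.3, 39.1 and 38.2 CPM. The groups did not overlap, with the highest 24 h library at 1.15 CPM and the lowest 48 h library at 38.2 CPM. Non-overlapping groups were found for 66.9% of all tested genes. Since the genes were selected on this contrast, nothing is read from the separation of the groups. The fitted log2 fold change was 5.77 (standard error 0.13), or 54.6-fold, the 8th largest increase among 14889 tested genes. The size of the fold rests on few counts at 24 h, where replicate 1 held more than each of the other libraries.

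The scavenging receptor gene was lower at 48 h. Ackr3 had 119, 112 and 121 counts at 24 h, which is 5.96, 5.47 and 5.13 CPM, and 17, 23 and 29 counts at 48 h, which is 0.782, 1.05 and 1.31 CPM. Every 24 h library was above every 48 h library. The fitted log2 fold change was -2.39 (standard error 0.18), a level 5.23-fold lower at 48 h. This was the 130th largest decrease among the genes tested. In bulk RNA, fewer cells with a transcript and less of it per cell cannot be told apart, for this gene as for the others.

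The signalling receptor gene was near the limit of detection throughout. Cxcr4 had 14, 13 and 10 counts at 24 h, or 0.701, 0.635 and 0.424 CPM. At 48 h it had 5, 0 and 2 counts, or 0.230, 0 and 0.0902 CPM, so that replicate 2 held none and was limited to 0.137 CPM. The groups did not overlap, but the gene was below the filter on low counts and was not among those tested. Over the summed libraries, 37 counts at 24 h stood against 7 at 48 h, a level 5.43-fold lower at 48 h, with a 95% exact counting interval from 2.39-fold to 14.4-fold. The log2 ratio of these sums was -2.44, and it became -3.67 when replicate 1 of 48 h was left out and -1.85 when replicate 2 was. Ackr3, summed in the same way, was 5.24-fold lower at 48 h, with an interval from 4.04-fold to 6.88-fold. The point values of the receptors were thus close, but the Cxcr4 interval is too wide to tell whether their ratios were alike. Both intervals cover counting error only, not the spread between libraries. As the genes were selected on this contrast, the intervals are not tests of it.

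**Figure D1:**
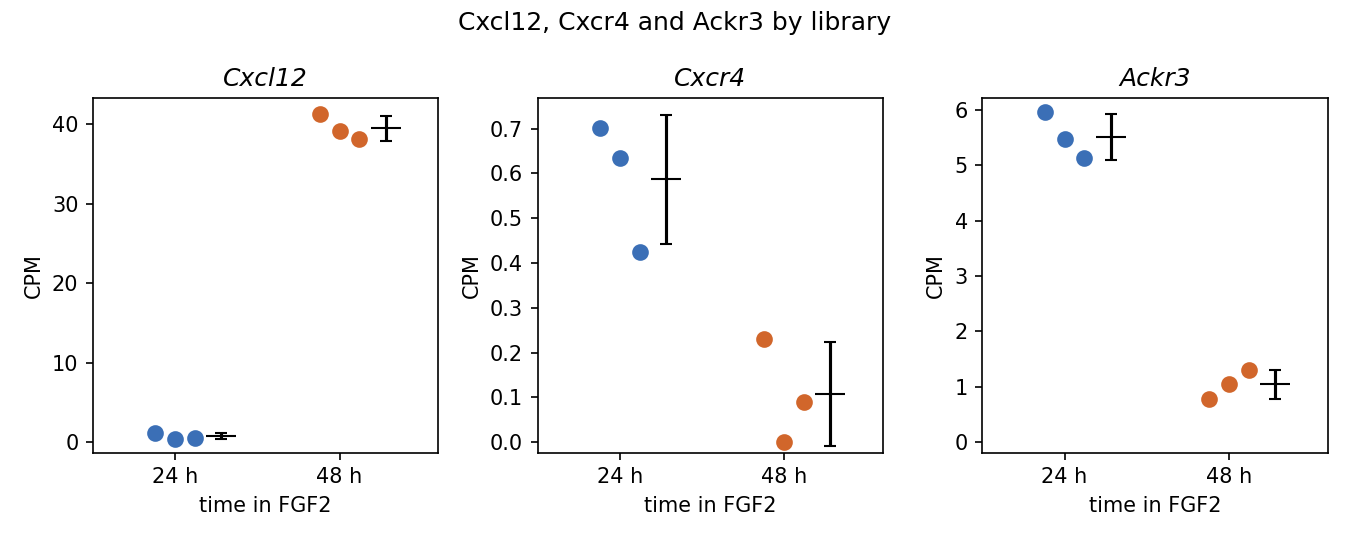
Level of each gene in CPM (vertical axes start at or just under 0 and differ between panels) at 24 h (blue) and 48 h (orange), with 1 point per library and the mean ± SD of 3 libraries as black bars. Cxcl12 is at 1.15 CPM or less at 24 h and at 38.2 CPM or more at 48 h, while both receptor genes are lower at 48 h.

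The balance of ligand and receptor was computed within each library, where scaling between libraries has no part. The genes were selected as higher or lower at 48 h, so the direction in which this balance moved follows from the selection. Its values are a description. The ratio of Cxcl12 to Ackr3 counts was 0.193, 0.0804 and 0.116 at 24 h and 52.8, 37.2 and 29.2 at 48 h. Transcripts differ in length, so the ratio was also taken per kb. The basic coding transcripts of Cxcl12 span 1878 to 5627 bases, against 3065 bases for Ackr3 and 1805 bases for Cxcr4, and the counts do not tell which Cxcl12 transcript was made. Per kb, the ratio lay between 0.0438 and 0.105 at 24 h with the longest transcript, and between 0.131 and 0.315 with the shortest. At 48 h it lay between 15.9 and 28.7 with the longest and between 47.6 and 86.1 with the shortest. With either length Ackr3 exceeded Cxcl12 in every 24 h library and Cxcl12 exceeded Ackr3 in every 48 h library. Between the receptors the order was unchanged in these libraries: Cxcr4 per kb was 0.200, 0.197 and 0.140 times Ackr3 at 24 h, and 0.499, 0 and 0.117 times at 48 h, where it rests on at most 5 counts of Cxcr4.

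**Figure D2:**
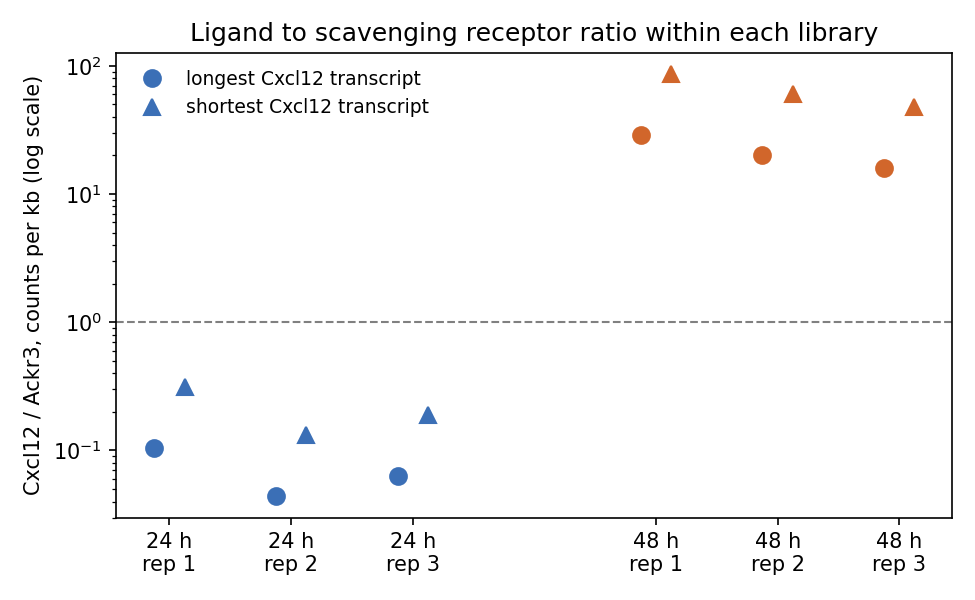
Ratio of Cxcl12 to Ackr3 in counts per kb of transcript (log axis) in each of the 6 libraries, with the longest (circles) or the shortest (triangles) basic coding transcript of Cxcl12 as its length. The dashed line marks equal levels, and all 24 h libraries lie under it and all 48 h libraries above it. The direction of this shift follows from how the genes were selected.

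Among 35 chemokine genes compared per kb of longest transcript, Cxcl12 was 8th or 9th at 24 h and first at 48 h in every library. At 24 h the highest was Ccl25, known as a thymus and gut chemokine, with 7.04 ± 0.170 CPM per kb (SD, n = 3) against 0.129 ± 0.0666 for Cxcl12. At 48 h Cxcl12 stood at 7.02 ± 0.284 and Ccl25 at 5.83 ± 0.855 CPM per kb. With its shortest transcript instead, Cxcl12 would be at 0.388 ± 0.199 at 24 h and 21.0 ± 0.852 CPM per kb at 48 h. Its order at 24 h and its distance from Ccl25 at 48 h thus depend on the length used. Exons of Ccl25 overlap those of Elavl1 on the opposite strand, and whether the counting was stranded is not given in the sources used here. The same limit holds for other genes named below with such overlaps, among them Hmgb1, Usp14, Plcb3, Sulf2 and Yod1. Of 24 chemokine receptor genes, Ackr3 was the highest per kb at 24 h (1.80 ± 0.136 CPM per kb) and the second at 48 h (0.342 ± 0.0858). Ccr4, a receptor for CC chemokines, was at 0.477 ± 0.153 and 0.579 ± 0.134 CPM per kb, below Ackr3 in every 24 h library and above it in every 48 h library. Cxcr4 was the third at 24 h with 0.325 ± 0.0802, a value whose spread overlaps that of Ccr4.

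Genes known to act with CXCL12 were then examined with lists that cover 177 genes. Of the 108 that were tested with edgeR's quasi-likelihood method, 75 passed an adjusted p of 0.05, 30 upward and 45 downward. This is 69.4% of them, where 62.8% of all 14889 tested genes passed, 30.9% upward and 31.9% downward. Their median log2 fold change was -0.08, against -0.01 for all genes. The lists as a whole therefore sat close to the background, and the values that follow are about single genes.

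Of the 34 other chemokine ligands, 5 were tested, and 3 of these fell while 0 rose (median -0.27). Cxcl14 fell, with 1.09 ± 0.265 CPM at 24 h and 0.259 ± 0.0532 CPM at 48 h (SD, n = 3; log2 fold change -2.05, standard error 0.37, adjusted p = 0.000147). Cx3cl1, the membrane-bound chemokine fractalkine, also fell, with 2.12 ± 0.352 CPM at 24 h and 0.668 ± 0.132 CPM at 48 h (log2 fold change -1.66, adjusted p = 2.99e-05). Ccl25 fell by 0.27 on the log2 scale (edgeR adjusted p = 0.0447), a call lost with DESeq2 (adjusted p = 0.153) and when any library but replicate 2 of 48 h was left out. Over all alternatives its adjusted p ranged from 0.0154 to 0.225. The other 29 held at most 12 counts in a library, and 18 of them held 0 in all 6. Of the 23 other chemokine receptors and binding proteins, Ccr4 and Gpr182 were tested and 0 changed with edgeR, with 0 at an unadjusted p under 0.05 and 0 with DESeq2 or limma voom. Ackr4, an atypical receptor for CC chemokines, was below the filter on low counts with all libraries. It was called lower at 48 h in 3 of the 6 edgeR fits that left out 1 library, with adjusted p from 0.0436 to 0.0492. In the edgeR fit of all libraries without that filter, 0 of these receptors were called.

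Of the 6 other ligands of these receptors, 3 were tested, and 2 rose and 1 fell (median 0.34). Mif, a cytokine that also binds CXCR4, rose, with 173 ± 3.98 CPM at 24 h and 261 ± 2.25 CPM at 48 h (SD, n = 3; log2 fold change 0.59, adjusted p = 8.49e-13). Hmgb1, a chromatin protein that forms a complex with CXCL12 when released, rose too, with 309 ± 11.9 CPM at 24 h and 391 ± 3.36 CPM at 48 h (log2 fold change 0.34, adjusted p = 2.59e-09). Ubb, a ubiquitin gene, fell by 0.06 on the log2 scale. The counts of these 3 were fractional, so reads were divided with similar genes. Adm, whose peptide is taken up by ACKR3, had 1, 2 and 3 counts at 24 h and 4, 15 and 12 at 48 h and was not tested.

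Among enzymes that cut CXCL12, 6 of 9 were tested, and 1 rose and 2 fell (median -0.24). Dpp4, which trims the N-terminus that activates CXCR4, fell slightly, with 53.0 ± 2.13 CPM at 24 h and 47.9 ± 1.42 CPM at 48 h (SD, n = 3; log2 fold change -0.15, adjusted p = 0.00524). Mmp14, a membrane metalloproteinase, fell by 0.50 on the log2 scale (adjusted p = 8.52e-07). Mmp2, the gelatinase that it activates, rose, with 6.76 ± 0.145 CPM at 24 h and 10.4 ± 0.375 CPM at 48 h (log2 fold change 0.61, adjusted p = 1.22e-05).

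Heparan sulphate, which retains CXCL12, is carried by core proteins of which 12 of 13 were tested, with 4 up and 4 down (median 0.01). Gpc3, a glypican, rose, with 10.9 ± 1.87 CPM at 24 h and 19.0 ± 0.327 CPM at 48 h (SD, n = 3; log2 fold change 0.80, standard error 0.10, adjusted p = 1.8e-06). Agrn, Sdc4 and Hspg2, which encode agrin, syndecan-4 and perlecan, fell by 0.50, 0.50 and 0.44 on the log2 scale. Agrn had the highest CPM of the list, at 420.0 ± 6.82 CPM at 24 h and 296 ± 4.97 CPM at 48 h.

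Of the 23 genes that build or edit these chains, 16 were tested, with 4 up and 8 down (median -0.18). Sulf1, which removes 6-O-sulphates from the chains outside the cell, rose, with 91.7 ± 5.79 CPM at 24 h and 224 ± 4.17 CPM at 48 h (SD, n = 3; log2 fold change 1.29, standard error 0.03, adjusted p = 9.58e-15). Its relative Sulf2 fell by 0.14 on that scale (adjusted p = 3.64e-05). Hs6st2, which adds 6-O-sulphates, rose from 7, 8 and 6 counts at 24 h to 62, 57 and 60 at 48 h (log2 scale 3.03 with standard error 0.26 and adjusted p = 3.24e-08). Ext2, a subunit of the chain polymerase, fell by 0.60 (adjusted p = 9.29e-10), and its relatives Extl1, Extl2 and Extl3 fell by 1.56, 0.54 and 0.27.

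Downstream of the receptor, 19 of 22 genes of Gi-coupled signalling were tested, with 6 up and 7 down (median 0.07). Gng2, a G protein gamma subunit, rose, with 8.08 ± 0.719 CPM at 24 h and 22.4 ± 1.06 CPM at 48 h (SD, n = 3; log2 fold change 1.48, standard error 0.08, adjusted p = 9.03e-11). The Gi alpha subunits Gnai2 and Gnai3 moved apart, as Gnai2 fell by 0.54 on the log2 scale and Gnai3 rose by 0.16. Gng12, another gamma subunit, and Plcb3, a phospholipase activated by the released G protein subunits, fell by 0.58 and 0.42.

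Of 23 genes for receptor desensitisation and sorting, 21 were tested, with 5 up and 8 down (median -0.08). Grk3, a kinase that phosphorylates active receptors, fell, with 12.1 ± 1.20 CPM at 24 h and 4.09 ± 0.505 CPM at 48 h (SD, n = 3; log2 fold change -1.56, standard error 0.11, adjusted p = 3.38e-09), and the related Grk6 rose by 0.16 (adjusted p = 9.93e-05). Arrb1, encoding the adaptor beta-arrestin 1, rose, with 1.83 ± 0.198 CPM at 24 h and 4.14 ± 0.379 CPM at 48 h (log2 fold change 1.18, adjusted p = 6.32e-06). Arrb2, encoding beta-arrestin 2, fell by 0.16 (edgeR adjusted p = 0.0104), a call lost with DESeq2 (adjusted p = 0.0722) and when replicate 1 of 48 h was left out (adjusted p = 0.0556). Among all its alternatives the lowest adjusted p was 0.00105 and the highest 0.0722. Rgs3, which speeds up the switching off of G proteins, fell by 0.63, and Rgs12 of the same family rose by 0.37. Some Rgs3 counts were fractional, so reads were divided with similar genes. Its lowest 24 h library was at 6.64 CPM and its highest 48 h library at 6.58 CPM. Usp14, a deubiquitinase that acts on CXCR4, rose by 0.34.

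All 24 genes of the chemotaxis machinery were tested, and 8 rose and 12 fell (median -0.06). Elmo1, which with DOCK proteins activates RAC at the leading edge, rose, with 14.9 ± 0.716 CPM at 24 h and 42.8 ± 0.602 CPM at 48 h (SD, n = 3; log2 fold change 1.52, standard error 0.05, adjusted p = 1.61e-13). Pak1, a kinase activated by RAC and CDC42, rose as well, with 47.1 ± 1.12 CPM at 24 h and 101 ± 2.90 CPM at 48 h (log2 fold change 1.10, adjusted p = 7.78e-14). Dock2 rose by 1.18 and Dock1 fell by 0.38. Rac2, the RAC gene best known from blood cells, fell, with 4.49 ± 0.499 CPM at 24 h and 0.897 ± 0.139 CPM at 48 h (log2 fold change -2.31, adjusted p = 1.52e-08). Of the RAC activators Prex1 and Prex2, the first fell by 0.58 and the second rose by 0.50.

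**Figure D3:**
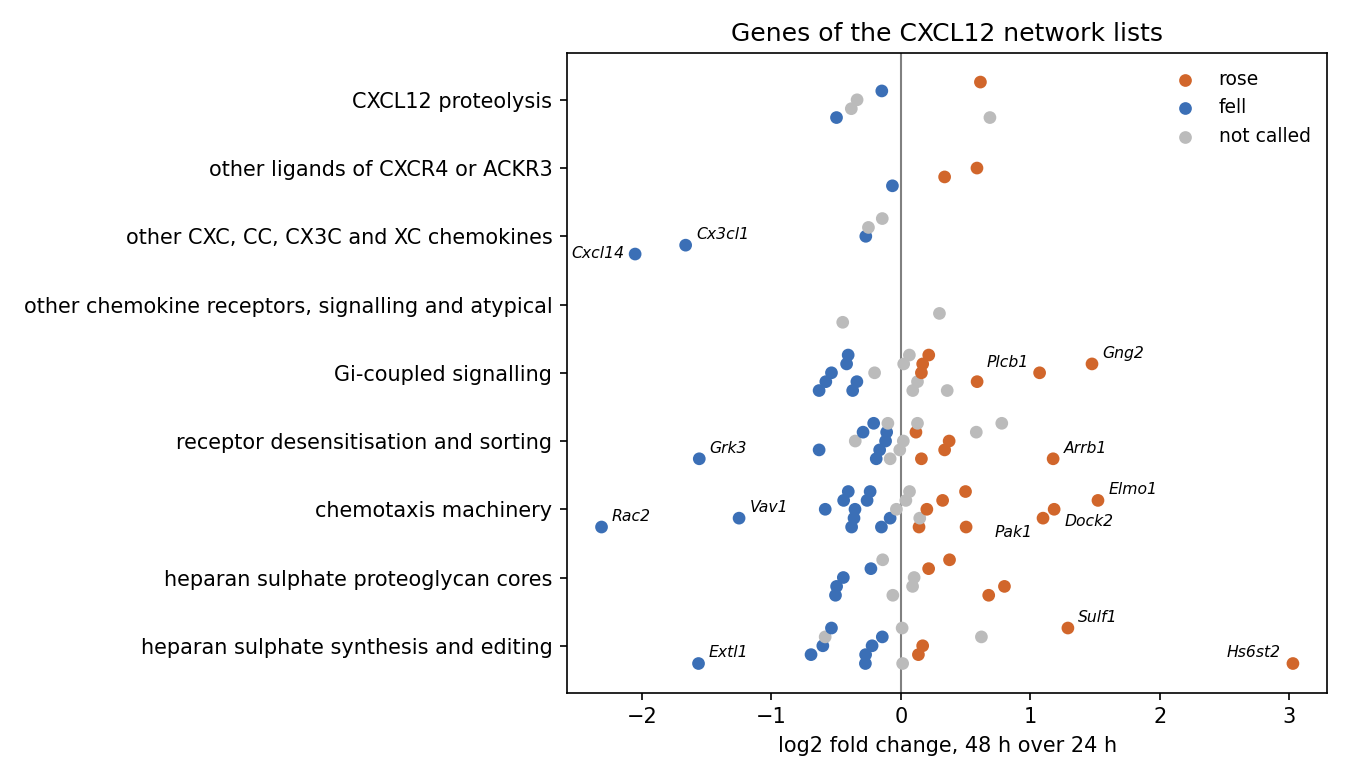
Log2 fold change, 48 h over 24 h, of the 108 tested genes of the 9 lists, with 1 point per gene (spread vertically for legibility) in orange where it rose, blue where it fell and grey where it was not called at an adjusted p under 0.05. Each list with called genes among at least 12 tested holds points on both sides of 0, and Hs6st2 has the largest increase at 3.03.

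CXCL12 is typically a product of stromal cells, so markers of other cell types were read beside it. The 14 fibroblast and feeder markers summed to between 6.54 and 8.26 CPM at 24 h and to between 6.31 and 8.71 CPM at 48 h. Lum and Postn had 0 counts in all 6 libraries, and Acta2 and Col3a1 at most 2 in a library. Of the 5 tested, Col1a1 and Pdgfrb fell by 1.76 and 1.80 on the log2 scale, and Twist1 and Dcn rose. Dcn, the matrix proteoglycan decorin, had 0 counts in each 24 h library and 23, 25 and 32 at 48 h, at least 8.60-fold higher against 3 counts per 24 h library. Its part in the Cxcl12 result was not tested.

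The 9 endothelial and blood markers summed to between 8.48 and 9.36 CPM at 24 h and to between 8.80 and 11.1 CPM at 48 h, with Emcn at 0 counts throughout and Cdh5 and Ptprc at no more than 2 in a library. Of the 4 tested, Runx1 and Tal1 rose and Kdr fell. The call of Tal1 (edgeR adjusted p = 0.0380) was lost in 8 of 13 alternatives, with adjusted p from 0.0503 to 0.182, 4 of them fits without 1 library. The 9 markers of mesoderm and definitive endoderm, tissues where Cxcr4 is a common marker, held at most 11 counts each, and Cer1 held 0 throughout. They summed to at most 1.95 CPM in any library. The 7 primitive endoderm markers summed to between 167 and 179 CPM at 24 h and between 115 and 121 CPM at 48 h. Of the 5 tested, Gata4, Lama1 and Col4a1 fell, in the direction of the receptor genes, and their part in those results was not tested. The 8 neural markers summed to between 198 and 210.1 CPM at 24 h and between 188 and 205 CPM at 48 h, with 3 up and 4 down among the 7 tested.

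The genes next to each member on the chromosome were read for changes along the locus. Of the 18 neighbours taken for the 3 members, 7 rose and 5 fell, where 62.8% of all tested genes changed. The 3 nearest tested genes on each side of Cxcl12 had start sites 495 to 694 kb away, and their log2 fold changes lay between -1.64 and 0.22. Rassf4, the closest, fell, with 23.1 ± 1.17 CPM at 24 h and 7.40 ± 0.800 CPM at 48 h (SD, n = 3; log2 fold change -1.64, adjusted p = 4.08e-11). The 6 genes around Ackr3 had log2 fold changes from 0.17 to 0.77, with 4 up and 0 down, while Ackr3 itself was at -2.39. They include Gbx2, a homeobox transcription factor, which rose, with 12.1 ± 0.569 CPM at 24 h and 20.1 ± 0.758 CPM at 48 h. The exons of Gbx2 overlap those of D130058E05Rik, another of the 6, on the opposite strand. Around Cxcr4, the genes Dars, Mcm6 and Ubxn4 on the lower side had log2 fold changes between -0.02 and 0.13. The 3 on the other side, which start at least 1845 kb away, all fell, as did 31.9% of all tested genes. Gm15675, a noncoding RNA gene with few counts, fell by 1.39 on the log2 scale (adjusted p = 0.00555), Cd55, a complement regulator, by 1.29 (adjusted p = 1.01e-10) and Yod1, a deubiquitinase, by 0.40 (adjusted p = 0.00127). Some Cd55 counts were fractional, so reads were divided with similar genes.

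**Figure D4:**
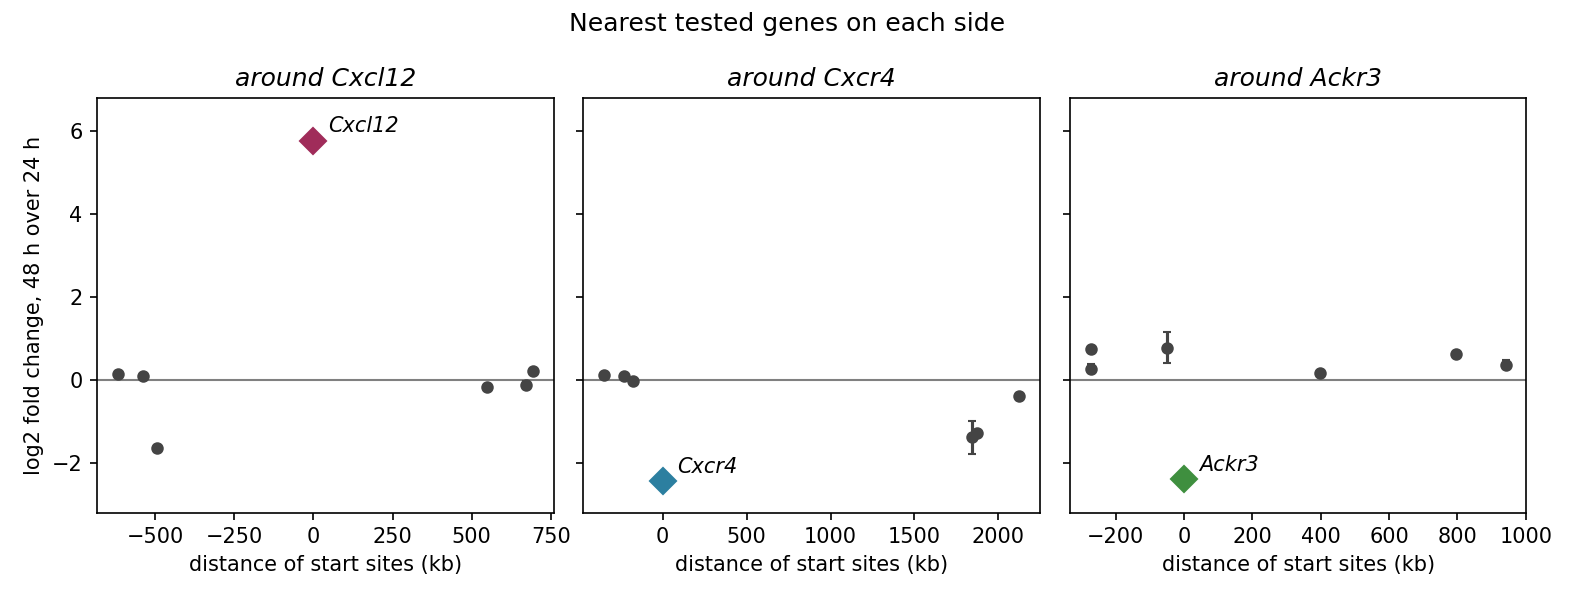
Log2 fold change, 48 h over 24 h, of each member (diamond; for Cxcr4 the ratio of summed counts) and of the 3 nearest tested genes on each side (points, bars are standard errors), against the distance between start sites in kb. Cxcl12 stands at 5.77, and its neighbours lie between -1.64 and 0.22. Around Cxcr4, the 3 neighbours on the lower side lie between -0.02 and 0.13 and the 3 on the higher side below 0.

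The genes most like each member were taken from 10428 genes averaging 5 CPM or more, by the Euclidean distance between centred log2 CPM profiles over the 6 libraries. The measure follows the same change that chose the members and is a description. The 5 nearest to Cxcl12 were Vrtn, Tal2, Zfp608, Fgf5 and Enpp2, at distances from 0.93 to 1.69 log2 units. Fgf5, the growth factor that marks the formative epiblast, stood at 2.25 ± 0.523 CPM at 24 h and 55.1 ± 1.56 CPM at 48 h (SD, n = 3). Enpp2, which encodes autotaxin, the secreted enzyme that makes lysophosphatidic acid, stood at 1.13 ± 0.107 CPM at 24 h and 26.5 ± 1.28 CPM at 48 h. The 5 nearest to Ackr3 were closer, at 0.43 to 0.51, and were Hdac7, St8sia1, Zc3hav1, Ntn1 and Tead4. Hdac7, a histone deacetylase, stood at 19.4 ± 0.837 CPM at 24 h and 4.28 ± 0.668 CPM at 48 h, and Ntn1, the axon guidance cue netrin-1, at 14.2 ± 1.42 CPM at 24 h and 2.60 ± 0.722 CPM at 48 h. For Cxcr4 the nearest were Paqr8, Dusp14, Ndrg1, Jdp2 and Cpsf4l, at 0.96 to 1.18, a ranking that rests on at most 14 counts of Cxcr4 in a library.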

How the data were processed

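Estimated counts per gene were used as deposited, not scaled for depth or length. Per the submitters' processing notes, cutadapt 1.9.1, STAR 2.5.2, RSEM 1.3.0 and the GRCm38 build were used. Which annotation was counted, and whether by strand, is not given in the sources used here. Each of the 6 columns matched 1 sample title, and 0 were left over. Symbols came from a reference table of gene identifiers and names, which matched 51633 of 51912 identifiers.

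Expected counts were rounded. Cxcr4 did not pass the filter, so its ratio of summed counts replaces the planned fit. Genes passing edgeR's filterByExpr (minimum count 10) were scaled by TMM and compared with glmQLFTest from edgeR 4.0.16 in R 4.3.3. The model held only the time group, with Benjamini-Hochberg adjustment over all 14889 genes. The test was also run on simulated counts in which few genes changed, unlike in these data, so that run does not cover the setting here. Standard errors are the fold change divided by the square root of F. Promoter windows are RefSeq's, and all 3 members had one. The Cxcr4 interval is an exact conditional binomial one at 95% (scipy 1.17.1). The members and lists were chosen with earlier results of these data known. From each list, up to 4 called, non-overlapping genes averaging 5 CPM or more are named, and any other listed gene may be. Alternatives were RLE or library-size scaling, other filters, DESeq2 1.42.0, limma voom (limma 3.58.1), unrounded counts, a replicate block, a threshold of 0.01 and leaving out each library.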

Additional observations from a re-analysis of the deposited data

How the results depend on the processing

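The direction of all 3 members was the same in every alternative that gave a value. The members were selected on this direction in the same libraries, so its persistence is not independent support. The log2 fold change of Cxcl12 lay between 5.53 and 6.23 when single libraries were left out, and was 6.23 without replicate 1 of 24 h. In the same way the log2 ratio of Cxcr4 went from -3.67 to -1.85, and the log2 fold change of Ackr3 from -2.58 to -2.21. Cxcl12 had no value with at least 10 counts in every sample, nor Cxcr4 with that filter, DESeq2, limma voom or the replicate block. With 1 library left out, between 0 and 1 of the other chemokine receptors were called. All other counts stayed within 1.5 times. With the replicate block there were 9235 calls, 9138 shared with the 9345 of the fit without it, and the log2 fold changes were 5.77 for Cxcl12 and -2.39 for Ackr3. Among the genes named, the block ended the call of Tal1 (0.93, adjusted p = 0.0594). The deviations of same-numbered libraries from their group means correlated at -0.05, -0.04 and -0.01 over the tested genes. Much of these deviations may be counting noise, which could hide a shared origin, so whether the numbers pair the libraries is not settled. Of the values of 155 listed and neighbouring genes, 2083 stayed on the same side of the threshold, 53 were no longer called, 17 became called and 0 reversed. Depth limits Cxcr4 and 69 of the 177 listed genes, which had too few counts to be tested.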
